A study of Mus musculus with 6 samples.

Results

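Lipid droplet coat and triglyceride turnover genes were followed in activated mouse CD8+ T cells given trans-vaccenic acid (TVA). The 10 members were taken by gene symbol from a table of 24589 genes: the coat genes Plin2 and Plin3, the triglyceride synthesis genes Dgat1 and Dgat2, the lipase genes Pnpla2, Lipe and Mgll, and the lipase regulators Abhd5, Hilpda and G0s2. All 10 were in the table, and all 10 were among the 10866 genes tested. They were chosen with results of this same contrast known, so their differences between TVA and DMSO are given as a description. Calls made for them along with all other genes tested are a description too, and nothing is read from them.

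TVA is a trans fatty acid found in meat and milk of ruminants. Wild-type primary CD8+ T cells, the cytotoxic lymphocytes of adaptive immunity, were activated with antibodies to CD3 and CD28 and cultured for 24 h with 20 µM TVA or with its solvent DMSO. Cells of both groups had been isolated with magnetic beads from spleen and lymph nodes of C57BL/6 mice and were grown in Click's medium with fetal bovine serum, so the DMSO cultures were also supplied with serum lipid. Bulk RNA was sequenced in 3 libraries of each group, 6 in all, and no source used here ties a library to a mouse or a culture, so the spread given is that between libraries and may be technical.

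Lipid droplets are organelles in which a core of triglyceride and sterol ester is enclosed by a single layer of phospholipid and coat proteins, the perilipins. Cells that take up more fatty acid than they burn or build into membranes esterify the surplus, with the last step to triglyceride made by DGAT1 and DGAT2. The stored fatty acid is released again by lipases in sequence: ATGL (encoded by Pnpla2) removes the first fatty acid, hormone-sensitive lipase (Lipe) acts on the diglyceride, and monoglyceride lipase (Mgll) on the monoglyceride. ABHD5 activates ATGL, whereas HILPDA and G0S2 inhibit it.

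Levels are given in TPM (transcript abundance corrected for length and scaled to one total in each library), so that levels of different genes in a library can be compared. In both groups Hilpda was the highest member, and Lipe, Mgll and G0s2 were the lowest. With DMSO the order of the group means was Hilpda, Pnpla2, Dgat2, Plin3, Plin2, Dgat1, Abhd5, Lipe, Mgll and G0s2. The ranges of neighbours in that order were apart except for Dgat2 and Plin3. With TVA, Plin2 moved from the fifth to the second place, Mgll came last after G0s2, and Dgat2 and Plin3 were again the only neighbours whose ranges overlapped. The members' coefficients of variation ran from 3.49% to 22.7% in the DMSO libraries and from 1.75% to 12.2% in the TVA libraries, and 9 of the 10 members varied more among the DMSO libraries.

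**Figure D1:**
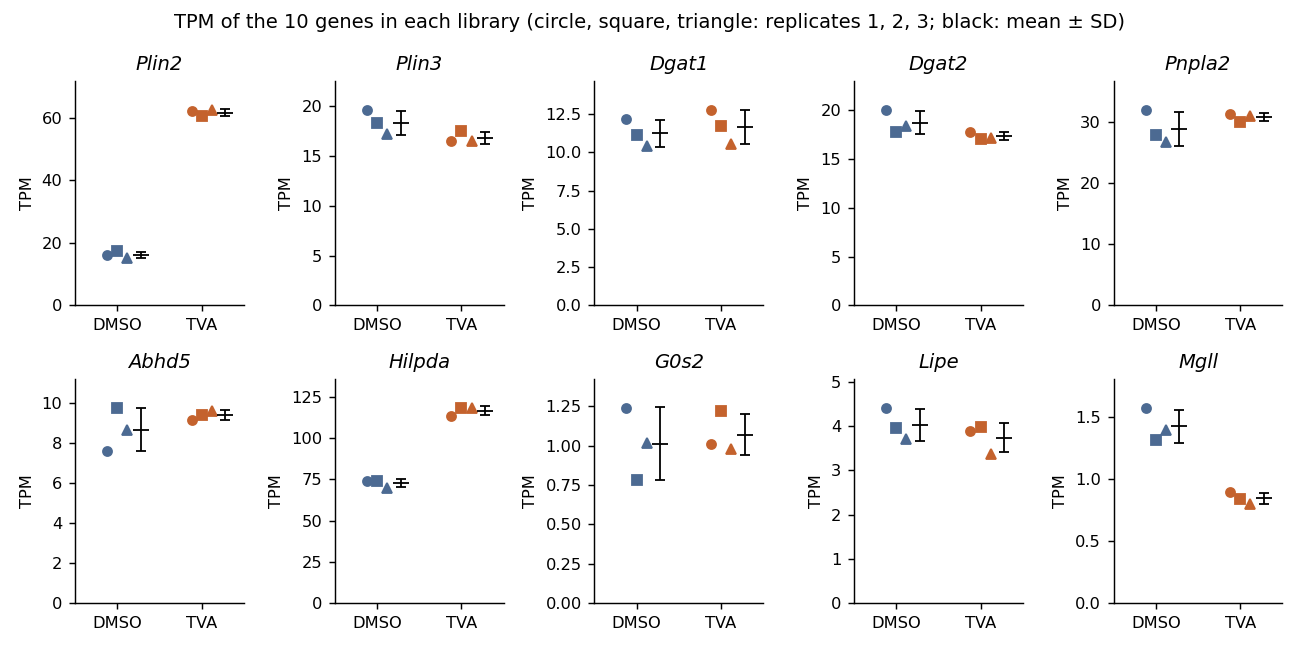
TPM of each of the 10 members in the 3 DMSO and the 3 TVA libraries, one panel a gene with its own axis from 0. Circles, squares and triangles are replicates 1, 2 and 3, and the black mark is the mean with its SD. Plin2 and Hilpda were higher in each TVA library than in any DMSO library and Mgll was lower, while the groups of the other 7 members overlapped.

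Plin2 encodes perilipin 2, the coat protein found on droplets of most cell types and degraded when it is not bound to one. Its TPM was 16.0, 17.2 and 15.2 in DMSO replicates 1, 2 and 3. In TVA replicates 1, 2 and 3 it was 62.1, 60.3 and 62.3. The groups were far apart, with each TVA library more than 40 TPM above the highest DMSO library. The means were 16.1 ± 1.03 TPM (SD, n = 3) with DMSO and 61.6 ± 1.08 TPM (SD, n = 3) with TVA, a ratio of 3.82. On the log2(TPM + 1) scale, on which changes of low genes are understated, the difference was 1.87 with an SE of 0.052 and a 95% interval from 1.75 to 1.99. This was the largest rise among the 10866 genes tested, and it carried Plin2 from the 42.4th to the 77.7th percentile of those genes by mean TPM. The difference lay between 1.83 and 1.93 under the 14 alternatives tried, so no single library set it. Because the RNA was taken in bulk, a change in the share of a cell type and a change in RNA per cell cannot be told apart. This holds for Plin2 and for every other gene.

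Plin2 lies on chromosome 4 (chr4:86626910-86670217, GRCm38, the build also called mm10), and its 3′ end overlaps Gm12551, a transcribed pseudogene not analysed here. The promoter window is shown because Plin2 is the member with the widest difference. It holds the 250 bases before the annotated start of transcription and the first 50 from it (RefSeq annotation of GRCm38.p6, chr4:86670010-86670309, minus strand), printed 5′ to 3′ in the gene's direction. Capitals mark matches to a motif from a short list chosen for lipid, hypoxia and cAMP responses and for common core promoters.

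Plin2 promoter: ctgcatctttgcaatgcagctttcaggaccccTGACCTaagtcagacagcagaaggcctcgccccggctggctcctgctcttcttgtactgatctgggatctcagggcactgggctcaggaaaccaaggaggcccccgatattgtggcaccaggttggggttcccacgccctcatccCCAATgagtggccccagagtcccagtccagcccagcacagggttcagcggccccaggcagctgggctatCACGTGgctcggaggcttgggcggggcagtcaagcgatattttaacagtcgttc

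With the start of transcription as base 1 and no base 0, the capitals mark the nuclear receptor half-site AGGTCA read on the opposite strand at bases -218 to -213, the CCAAT box at -73 to -69 and the E-box CACGTG at -4 to 2, which also contains the hypoxia response core ACGTG on both strands. AGGTCA on either strand was found in 16.3% of 32851 promoter windows of the same length, CCAAT in 37.4%, CACGTG in 7.15% and ACGTG in 19.6%. A pair of AGGTCA half-sites 1 base apart on one strand, the simplest form of a PPAR response element, was in 0.0396% of all windows and in none of the members' windows. These matches are letters in a window and no evidence of binding.

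Plin3 encodes the related coat protein perilipin 3, which is soluble in the cytosol and moves onto young droplets. Its TPM was 19.6, 18.3 and 17.2 in the DMSO libraries and 16.5, 17.5 and 16.6 in the TVA libraries. The groups overlapped. The means were 18.4 ± 1.20 and 16.9 ± 0.587 TPM (SD, n = 3 each), and the log2 difference was -0.12 with a 95% interval from -0.25 to 0.015. Plin3 lies on chr17:56278962-56290511 and overlaps no other annotated gene.

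The coat genes therefore exchanged places within each library. The ratio of Plin2 to Plin3 was 0.817, 0.940 and 0.880 in the DMSO libraries and 3.77, 3.44 and 3.76 in the TVA libraries, below 1 in each of the former and above 3 in each of the latter. The other perilipin genes were at or near 0. Plin1 was listed at 0 in every library, and the mean TPM of Plin4 was 0.020 with DMSO and 0.033 with TVA, and that of Plin5 was 0.040 and 0.023.

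The DGAT enzymes make triglyceride from diglyceride and acyl-CoA by unrelated proteins, DGAT1 in the endoplasmic reticulum and DGAT2 also at the droplet surface. Dgat1 (chr15:76502012-76512021) had 12.2, 11.1 and 10.4 TPM in the DMSO libraries and 12.8, 11.7 and 10.5 in those given TVA, overlapping groups with a log2 difference of 0.05 (95% interval -0.14 to 0.24). Dgat2 (chr7:99153663-99182713) had 20.0, 17.8 and 18.4 TPM in the DMSO libraries and 17.8, 17.1 and 17.2 in those given TVA, again overlapping, with a log2 difference of -0.10 (95% interval -0.23 to 0.023). Dgat2 was thus the higher of the pair throughout. Its excess was slightly smaller with TVA, where the ratio of Dgat1 to Dgat2 was 0.671 ± 0.0525 against 0.60 ± 0.0323 with DMSO (SD, n = 3 each), but these ratios overlapped, since the lowest TVA value of 0.613 lay under the highest DMSO value of 0.627.

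Pnpla2, which encodes the rate-limiting triglyceride lipase ATGL, was the most abundant of the lipase genes. It had 31.9, 27.8 and 26.7 TPM in the DMSO libraries and 31.3, 30.03 and 31.1 in those given TVA. DMSO replicate 1 was the highest of the 6 libraries, and the other DMSO libraries were the lowest. The means were 28.8 ± 2.74 and 30.8 ± 0.662 TPM (SD, n = 3 each), and the log2 difference was 0.10 (95% interval -0.058 to 0.25). Without DMSO replicate 1 the difference was 0.17. Pnpla2 lies on chr7:141455188-141460743.

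Abhd5 encodes the coactivator of ATGL, also known as CGI-58. Its TPM was 7.59, 9.74 and 8.64 in the DMSO libraries and 9.12, 9.40 and 9.61 in those given TVA, so that DMSO replicate 2 was above each TVA library. The log2 difference was 0.11 (95% interval -0.080 to 0.30), and the ratio of Pnpla2 to Abhd5 was 3.39 ± 0.720 with DMSO and 3.28 ± 0.126 with TVA (SD, n = 3 each). These ratios overlapped, with a wide spread among the DMSO libraries. Abhd5 lies on chr9:122351616-122381524.

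Hilpda encodes a small droplet protein that inhibits ATGL and is known as a target of hypoxia signalling and of fatty acids. Its TPM was 74.3, 74.0 and 69.7 in the DMSO libraries. In the TVA libraries it was 114, 118 and 118. The groups did not overlap, and the spread within each was small. The means were 72.7 ± 2.54 TPM with DMSO and 116.7 ± 2.66 TPM with TVA (SD, n = 3 each), a ratio of 1.61. The log2 difference was 0.68 (SE 0.041, 95% interval 0.58 to 0.77), and 18 of the genes tested had a larger rise. Under the alternatives it lay between 0.64 and 0.69. In TPM the difference between the means was close to that of Plin2, from a starting level more than 4 times as high.

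Hilpda lies on chromosome 6 (chr6:29272488-29275449) with 2 annotated starts. The window of the downstream start (RefSeq annotation of GRCm38.p6, chr6:29272376-29272675, plus strand) is shown because it carries the ACGTG core within 50 bases of the start.

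Hilpda promoter: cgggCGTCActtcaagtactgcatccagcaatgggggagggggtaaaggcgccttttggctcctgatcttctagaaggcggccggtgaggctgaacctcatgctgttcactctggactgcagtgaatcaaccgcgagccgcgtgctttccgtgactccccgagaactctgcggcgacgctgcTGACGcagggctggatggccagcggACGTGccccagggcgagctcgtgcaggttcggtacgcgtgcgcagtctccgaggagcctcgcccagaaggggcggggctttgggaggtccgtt

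Capitals mark ACGTG at bases -43 to -39 from that start and the CRE half-site TGACG at -246 to -242, read on the opposite strand, and at -68 to -64. TGACG on either strand was in 20.8% of all windows. The window of the upstream start held TGACG and no ACGTG.

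G0s2 encodes the other inhibitor of ATGL, named for its induction when resting lymphocytes enter the cell cycle. It was barely expressed, with 1.24, 0.780 and 1.02 TPM in the DMSO libraries and 1.01, 1.22 and 0.980 TPM in the TVA libraries. The TVA values lay within the DMSO range, with a log2 difference of 0.04 (95% interval -0.20 to 0.29). Among transcripts for ATGL inhibitors, those of Hilpda were thus in large excess: the ratio of Hilpda to G0s2 was 59.9 to 94.9 with DMSO and 97.0 to 120.5 with TVA. Hilpda was also higher relative to the lipase gene itself, with a ratio of Hilpda to Pnpla2 of 2.53 ± 0.179 with DMSO and 3.79 ± 0.154 with TVA (SD, n = 3 each). G0s2 lies on chr1:193272160-193273188.

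Lipe, encoding hormone-sensitive lipase, was low. Its TPM was 4.41, 3.96 and 3.70 in the DMSO libraries and 3.89, 3.97 and 3.36 in those given TVA, overlapping groups with a log2 difference of -0.08 (95% interval -0.27 to 0.10). It lies on chr7:25379527-25398486 inside the long noncoding gene 4732471J01Rik, and how reads were shared between them, or whether strand was used, is not given in the sources used here.

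Mgll, encoding monoglyceride lipase, was the only member lower in each TVA library. Its TPM was 1.57, 1.31 and 1.39 in the DMSO libraries and 0.890, 0.84 and 0.80 in the TVA libraries. The groups did not overlap, but all values were close to 1 TPM. The means were 1.42 ± 0.133 and 0.843 ± 0.0451 TPM (SD, n = 3 each), a ratio of 0.593. The log2 difference was -0.39 (SE 0.079, 95% interval -0.58 to -0.21), and -0.69 when 0.1 in place of 1 was added to each TPM. Genes were tested where at least 3 libraries reached 1 TPM, and Mgll met this through its DMSO libraries alone, so that as a tested gene it had to differ.

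Mgll lies on chromosome 6 (chr6:88724412-88828360), where the long noncoding gene Gm26588, not analysed here, overlaps its 5′ part. The window of its upstream annotated start (RefSeq annotation of GRCm38.p6, chr6:88724162-88724461, plus strand) is set beside those of Plin2 and Hilpda as that of the member that differed the other way.

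Mgll promoter: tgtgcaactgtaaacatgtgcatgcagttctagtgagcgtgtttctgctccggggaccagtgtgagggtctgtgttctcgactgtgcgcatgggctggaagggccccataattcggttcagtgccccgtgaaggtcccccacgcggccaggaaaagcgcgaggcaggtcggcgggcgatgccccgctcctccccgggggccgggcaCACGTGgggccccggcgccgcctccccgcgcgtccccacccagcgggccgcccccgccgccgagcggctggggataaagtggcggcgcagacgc

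Capitals mark the E-box CACGTG, with the ACGTG core on both strands, at bases -44 to -39. The 3 members whose groups did not overlap all had ACGTG in a window, and so did Lipe, 4 of the 8 members for which a window was at hand (5 of their 11 windows, beside the 19.6% of all windows). No window was at hand for Dgat1 and Dgat2. The motif thus stood before genes that were higher, lower and overlapping with TVA.

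**Figure D2:**
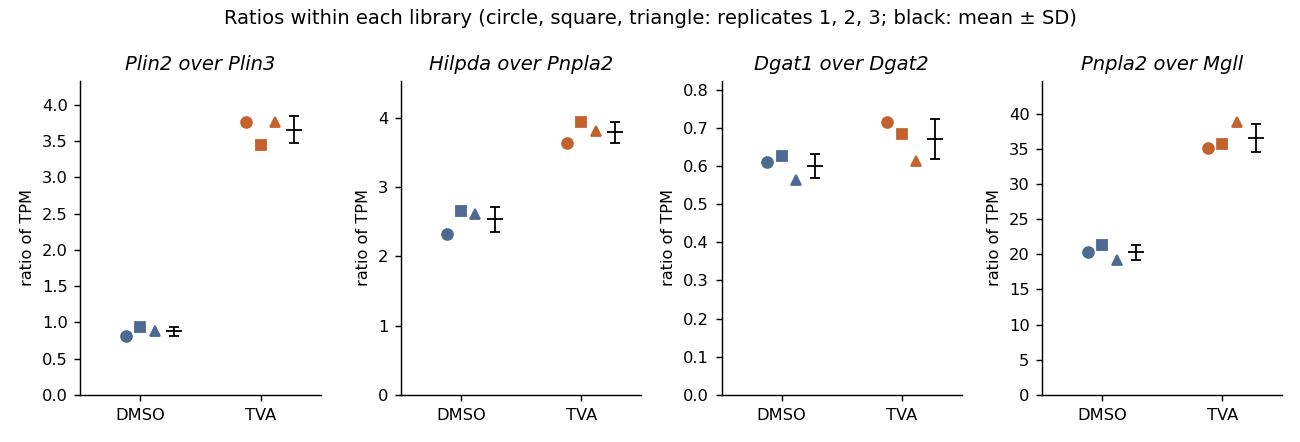
Ratios of TPM within each library for 4 pairs of members, with replicates 1, 2 and 3 as circles, squares and triangles and the mean with its SD in black, each axis starting at 0. The ratios of Plin2 to Plin3, Hilpda to Pnpla2 and Pnpla2 to Mgll were apart between the groups, and the ratio of Dgat1 to Dgat2 overlapped.

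Along the path of triglyceride breakdown, the ratio of Pnpla2 to Mgll was 20.3 ± 1.02 with DMSO and 36.6 ± 1.97 with TVA (SD, n = 3 each), and that of Pnpla2 to Lipe 7.16 ± 0.115 and 8.28 ± 0.864. The first lipase of the sequence was therefore far more abundant as transcript than the later ones in both groups.

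Summed over the 10 members, the transcripts came to 189, 182 and 172 TPM in the DMSO libraries and 269, 270.4 and 270.4 TPM in the TVA libraries. Plin2 supplied 8.91% ± 0.497 of this sum with DMSO and 22.8% ± 0.434 with TVA, and Hilpda 40.1% ± 0.719 and 43.2% ± 0.845 (SD, n = 3 each). Without these genes the other 8 members summed to 92.3 ± 5.69 and 91.7 ± 1.62 TPM, and the groups overlapped. The difference in the summed level thus lay in a coat gene and an inhibitor of the first lipase, while the sum of the other 8 stayed within the range of the DMSO libraries, Mgll with its low level included.

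Across all genes tested, log2(TPM + 1) values of the 2 groups were compared with limma (linear models whose variances borrow strength across genes), and called genes were those at a Benjamini-Hochberg adjusted p under 0.05. By this rule 5.28% of the genes tested were called higher and 3.23% lower. Of the members 2 were called higher, Plin2 and Hilpda, and 1 lower, Mgll. The TVA libraries lay all above the DMSO libraries for 27.3% of the genes tested and all below for 11.2%, and for the same 2 members and the same 1 member. As the members were chosen from this contrast, nothing is read from these counts. The members' median log2 difference was 0.05 beside 0.04 over all genes tested, with 6 members above 0 and 4 below. Mgll was not called when DMSO replicate 1, DMSO replicate 3 or any of the TVA libraries was left out, with log2 differences of -0.43 to -0.35 over the libraries left out. The share of all genes called in each direction depended on the scaling, with 574 higher and 351 lower without rescaling, 270 and 492 after median-of-ratios scaling and 357 and 418 after quantile normalization, while the members called in each direction numbered 2 and 1 under all of these.

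**Figure D3:**
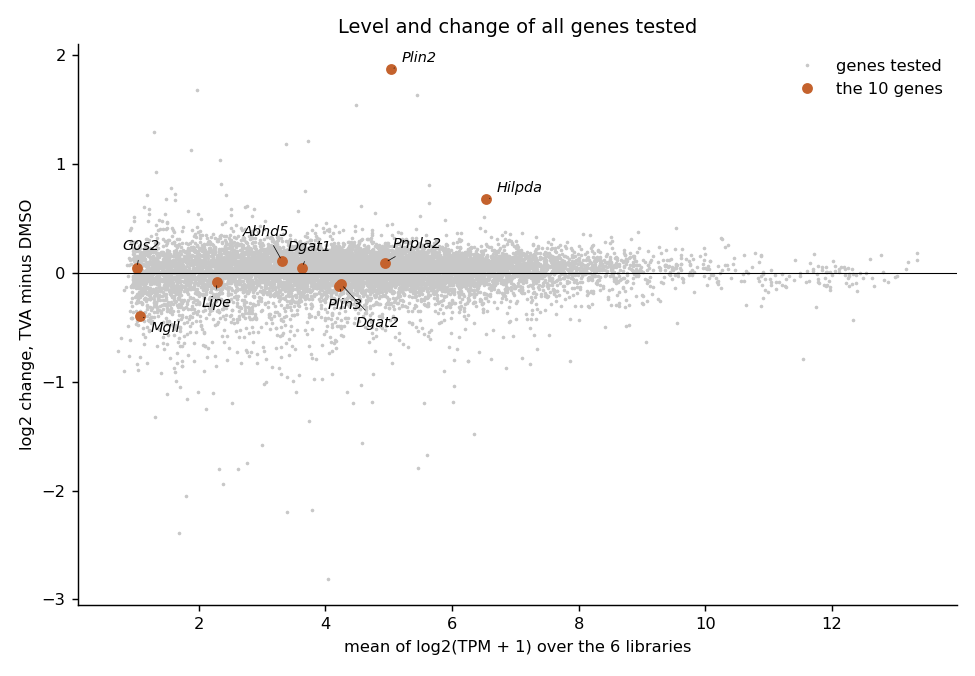
Log2 difference between TVA and DMSO (vertical axis) against the mean of log2(TPM + 1) over the 6 libraries (horizontal axis) for the 10866 genes tested, in grey, with the 10 members in orange. Plin2 at 1.87 is the highest point, Hilpda stands at 0.68 among abundant genes, Mgll at -0.39 near the low end, and the other 7 members lie between -0.12 and 0.11.

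The libraries differed among themselves in ways that touched the members. They correlated at 0.993 to 0.996 within the DMSO group, 0.997 to 0.999 within the TVA group and 0.989 to 0.996 between them (Pearson, log2(TPM + 1), across genes, which are not independent replicates), and TPM keep no record of sequencing depth. Within the DMSO group, 8 of the 10 members were highest in replicate 1, and Plin2 and Abhd5 in replicate 2. Across genes the difference between DMSO replicates 1 and 3 followed transcript GC content with a Spearman correlation of 0.62, and the log2 difference between TVA and DMSO with one of -0.40. The members' GC content ran from 48.8% to 58.1%, above the median of 50.4% for 9 of them, with Abhd5 the exception. After a correction for this trend the log2 differences of Plin2, Hilpda and Mgll were 1.85, 0.68 and -0.35, that of Dgat2 was -0.02, and that of Pnpla2 was 0.17.

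The identity of the cells was checked with marker genes. The 5 CD8 T cell markers measured (Cd8a, Cd8b1, Cd3d, Cd3e and Cd3g) summed to 1516 to 1638 TPM in the DMSO libraries and 1756 to 1787 TPM in the TVA libraries. The 5 adipocyte markers, which mark the tissue best known for these lipases, summed to 0 to 0.46 TPM with DMSO and 0 to 0.10 TPM with TVA, with Lep listed at 0 in every library. The 18 myeloid markers summed to 78.9 to 81.2 TPM with DMSO and 103.6 to 108.9 TPM with TVA, a ratio of 1.32. Lyz2 was the largest part of this sum (30.3 TPM with DMSO, ratio 1.31). Over the markers tested the ratio ran from 1.08 for Cd68 to 1.99 for S100a9, which rose from 2.93 to 5.83 TPM. The ratios of Plin2 and Hilpda were 3.82 and 1.61. That of S100a9 thus lay above Hilpda, and those of the other myeloid markers tested lay below it. Of the 18 myeloid markers, 11 were tested. Csf1r passed the filter through its TVA libraries alone, so that its groups had to be apart. All TVA values lay above all DMSO values for 9 of the 11, Csf1r included, beside 27.3% of all genes tested. By limma 5 rose and none fell, beside 5.28% and 3.23% of all genes tested. None of the 18 was at 0 in every library, though Mrc1 was at 0 in 5 of the 6. The part of myeloid RNA in the differences of Plin2 and Hilpda was not tested. Markers of NK cells summed to 21.5 to 24.2 and 32.8 to 33.1 TPM, nearly all of it from Eomes, which CD8 T cells express too. Those of CD4 T cells came to 9.28 to 10.1 and 7.55 to 8.31, of B cells to 11.3 to 14.9 and 10.7 to 11.04, and of red cells to 37.7 to 61.3 and 48.6 to 58.7 TPM.

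A list of 41 other lipid droplet genes places the members in their pathway. All were in the table and 24 were tested. Of the other 17, Plin1, Cidea, Mogat1, Mogat2, Ces1d and Aadac were listed at 0 in every library. By limma 4 of the 24 rose with TVA and none fell (8 higher and 0 lower at an unadjusted p under 0.05), where 5.28% and 3.23% of all genes tested were called higher and lower and 21.5% and 10.3% were at an unadjusted p under 0.05. The TVA libraries lay all above the DMSO libraries for 11 and all below for 1, Soat2, beside 27.3% and 11.2% of all genes tested, and the groups of 12 overlapped. The median log2 change of the list was 0.09, beside 0.04 for all genes tested. The range of changes was narrow against that of Plin2.

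Of the 12 other coat and surface genes, 5 were tested and 1 rose. This was Hsd17b11, which encodes a dehydrogenase anchored on droplets, with 18.2, 18.9 and 17.6 TPM in the DMSO libraries and 23.7, 23.3 and 21.9 TPM in the TVA libraries (log2 change 0.32, SE 0.049, limma adjusted p 0.016). The tissue-restricted coat genes Plin1, Cidea, Cideb and Cidec had means of at most 0.023 TPM in either group. Aup1, the most abundant of the list and a droplet protein of ubiquitin signalling, had 123 ± 7.12 and 118 ± 2.63 TPM (SD, n = 3 each) and was not called.

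None of the 3 tested genes of droplet assembly, which shape droplets as they leave the endoplasmic reticulum (Bscl2, Fitm2 and Tmem159, now named Ldaf1), was called. Of 14 genes of glycerolipid synthesis 9 were tested and 1 rose, Agpat4, which encodes an acyltransferase that makes phosphatidic acid. It had 45.0, 40.1 and 40.4 TPM in the DMSO libraries and 49.2, 50.7 and 48.1 in those given TVA (log2 change 0.23, SE 0.053, limma adjusted p 0.041). Other abundant enzymes of the path, Agpat3, Agpat1 and Gpat4, were not called, with log2 differences of -0.07, -0.05 and 0.09. As for Dgat1 and Dgat2, the groups overlapped for 6 of these 9 genes.

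All 4 genes of sterol ester turnover were tested and Lipa, encoding the acid lipase of lysosomes, rose. It had 21.6, 22.8 and 20.8 TPM in the DMSO libraries and 27.4, 27.2 and 27.3 in those given TVA (log2 change 0.31, SE 0.045, limma adjusted p 0.012), a ratio of 1.25 beside 1.32 for the myeloid markers, whose part in it was not tested. Of 7 other glycerolipid hydrolases 3 were tested, each of them higher in all TVA than in all DMSO libraries. Of these Abhd6 passed the threshold, with 6.12, 5.84 and 5.29 TPM in the DMSO libraries and 7.57, 7.68 and 8.07 in those given TVA (log2 change 0.38, SE 0.063, limma adjusted p 0.017). Abhd6 encodes a monoglyceride hydrolase like Mgll, from which it differed in direction and in its level, over 4 times as high with DMSO.

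The 4 calls depended on the libraries and, for Agpat4 and Abhd6, on the settings of the fit. With a replicate block, which takes same-numbered libraries as pairs, Abhd6 and Agpat4 were not called (limma adjusted p 0.056 and 0.071). Lipa, Abhd6 and Agpat4 were not called when any TVA library was left out, Agpat4 also without DMSO replicate 3, with no filter on low values or without the variance trend, and Hsd17b11 without TVA replicate 1 or 2. The log2 changes stayed positive throughout, from 0.28 to 0.35 for Lipa, 0.33 to 0.42 for Abhd6, 0.20 to 0.29 for Agpat4 and 0.30 to 0.35 for Hsd17b11 with 1 library left out.

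**Figure D4:**
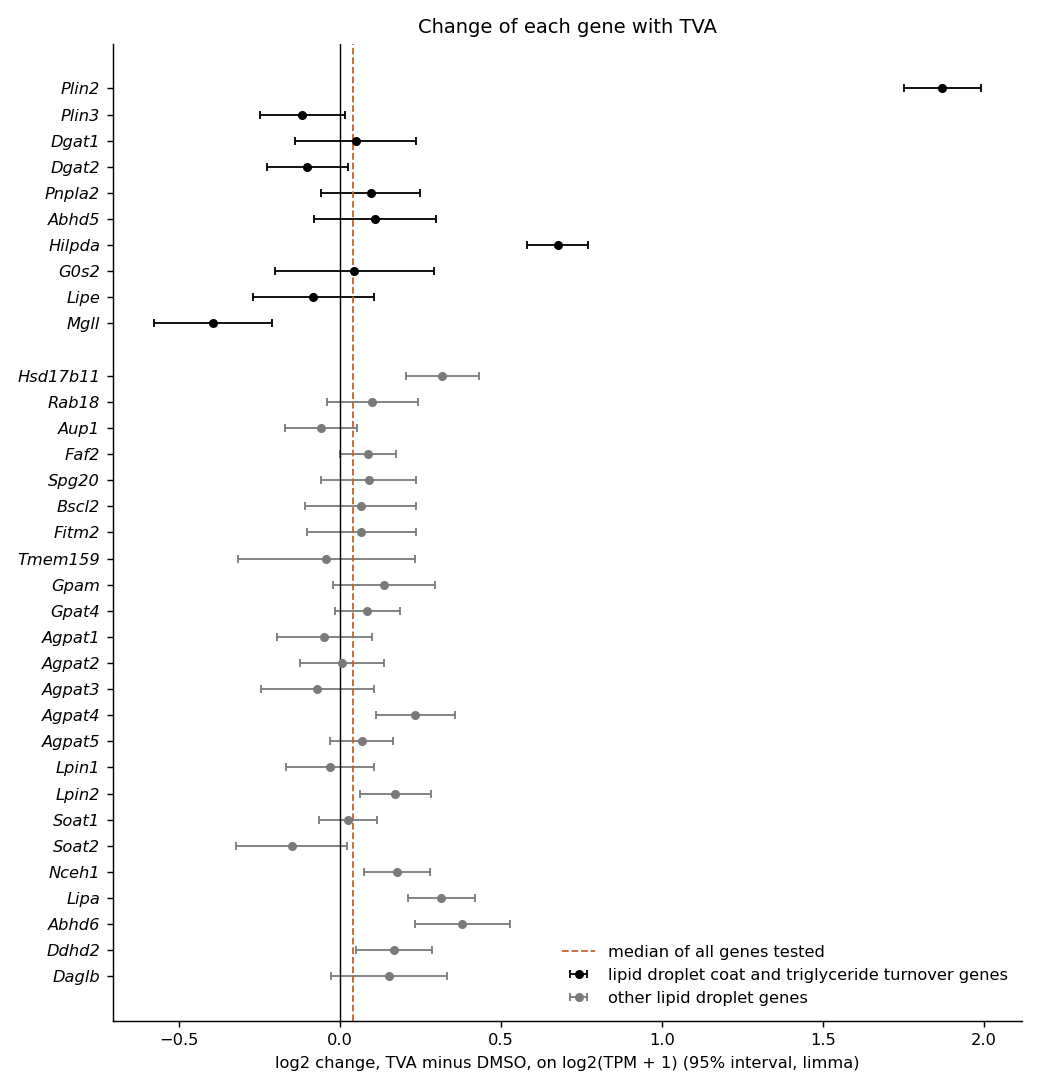
Log2 difference between TVA and DMSO on log2(TPM + 1), with its 95% interval from limma, for the 10 members (black) and the 24 other lipid droplet genes tested (grey), with the median of all genes tested as a dashed line at 0.04. Plin2 stands at 1.87, Hilpda at 0.68 and Mgll at -0.39, the other members lie between -0.12 and 0.11, and the grey genes between -0.15 and 0.38. Tmem159 and Spg20 are older symbols of Ldaf1 and Spart.

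Plin2 and Hilpda are known targets of the fatty acid sensors of the PPAR family, and Hilpda also of hypoxia factors, so lists of both kinds were set beside them. These lists were written with the direction of some of their genes already known, and give no independent support. Of 16 genes of fatty acid oxidation and PPAR targets, 14 were tested, 6 rose and none fell by limma (7 higher and 1 lower at an unadjusted p under 0.05), with a median log2 change of 0.10. The shares of all genes tested were 5.28% higher and 3.23% lower by call and 21.5% and 10.3% by unadjusted p. The groups of 7 of the 14 were apart upwards, none downwards, beside 27.3% and 11.2% of all genes tested. Cpt1a, the gate enzyme of mitochondrial fatty acid import, had 11.9, 12.5 and 11.8 TPM in the DMSO libraries and 36.6, 37.6 and 36.8 in those given TVA (log2 change 1.54, SE 0.042, limma adjusted p 3.9e-06). Slc25a20, the carnitine carrier, rose from 38.7 to 61.3 TPM, a log2 change of 0.65 (limma adjusted p 4.4e-04). Cd36, a fatty acid transporter, rose from 1.29 to 2.89 TPM, a log2 change of 0.78 (limma adjusted p 0.017), and was not called without any one of the TVA libraries (0.63 to 0.87 with 1 library left out). Myeloid cells express Cd36 too, and the part of the myeloid markers, at a ratio of 1.32, in its rise and in the list was not tested.

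Of 18 hypoxia targets other than Hilpda, 17 were tested, none rose and 4 fell by limma (0 higher and 9 lower at an unadjusted p under 0.05), beside the same shares of all genes tested, 3.23% lower by call and 10.3% by unadjusted p. The median log2 change was -0.10. The TVA libraries lay all below the DMSO libraries for 11 of the 17 and all above for 1, Pfkfb4 (1.37 to 1.94 TPM with DMSO, 2.00 to 2.18 with TVA, named after its values were seen and not called), beside 11.2% and 27.3% of all genes tested. Egln3, which encodes an oxygen-sensing prolyl hydroxylase, had 18.4, 15.5 and 16.6 TPM in the DMSO libraries and 9.93, 9.28 and 9.62 in those given TVA (log2 change -0.75, limma adjusted p 0.0020). Ankrd37 fell from 19.8 to 12.8 TPM (-0.58, limma adjusted p 0.035), Bnip3 from 30.0 to 24.5 TPM (-0.28, limma adjusted p 0.048), and the glucose transporter gene Slc2a1 (named after its value was seen) from 94.1 to 79.4 TPM (-0.24, limma adjusted p 0.035). These last 3 were no longer called once DMSO replicate 3 or one of the TVA libraries was left out, with no filter on low values or with a replicate block. Bnip3 was also not called after quantile normalization or without the variance trend. The changes were -0.69 to -0.45, -0.35 to -0.21 and -0.27 to -0.19 over the libraries left out.

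The genes whose profiles over the 6 libraries were most like that of Plin2 were ranked by the root mean square difference of log2(TPM + 1) values, each gene centred on its own mean, among the 8935 genes whose mean reached 5 TPM. Cpt1a came first with a difference of 0.169, followed by Spp1 (0.352), Cxcl3 (0.397), Penk (0.532) and Rsc1a1 (0.566), whose annotated span lies inside Ddi2 and whose value is uncertain. Hilpda came next, in place 6, with 0.599. The other members with a mean of at least that level ranked from place 2453 (Abhd5) to place 7622 (Plin3). Among the DMSO libraries Plin2 and Cpt1a were both highest in replicate 2, as were Spp1, Penk and Rsc1a1. Among the TVA libraries replicate 2 was the lowest for Plin2 and the highest for Cpt1a. Likeness here mostly reflects the size of the difference between the groups, on which the genes were in effect selected, and is given as a description. The part of myeloid RNA in the rises of these genes, beside a ratio of 1.32 for the summed myeloid markers, was not tested.

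**Figure D5:**
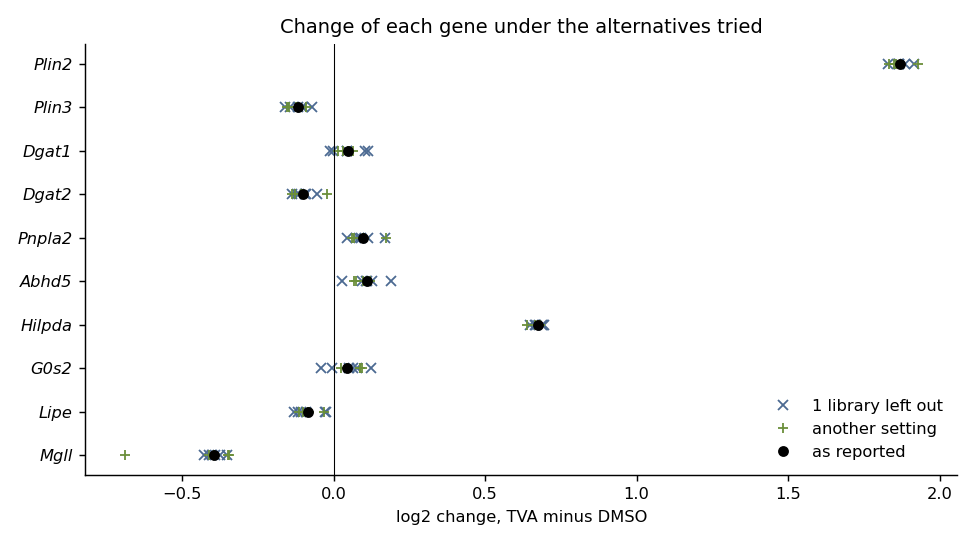
Log2 difference between TVA and DMSO of each member as reported (black circle), with 1 library left out (blue cross) and under another setting (green plus). Plin2 stayed between 1.83 and 1.93 and Hilpda between 0.64 and 0.69, Mgll stayed below 0 with its lowest value of -0.69 at an added 0.1 TPM, and Dgat1 and G0s2 lay on both sides of 0.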

How the data were processed

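RNA of 6 libraries (3 DMSO, 3 TVA, 24 h) was sequenced as SMARTER mRNA-Seq libraries. The authors deposited 1 table of TPM per gene symbol. The submitters' processing notes name STAR, RSEM and mm10, while versions, annotation and strand setting are not given in the sources used here. Groups came from sample titles and columns from sample descriptions.

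The members and lists were chosen with earlier results of these data known. The 10866 genes with at least 1 TPM in at least 3 libraries were fitted on log2(TPM + 1) with limma 3.58.1 (R 4.3.3, trended prior, no block, two-sided, Benjamini-Hochberg adjustment over all genes tested, threshold 0.05). The deposited TPM keep no depth, so no counting interval is given, and 0 means only that a gene is listed at 0. The fit was tested on simulated data.

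Named were all members, each other lipid droplet gene called and the 4 most abundant not called, 3 genes with the largest change of each context list, and the 5 genes most like Plin2 at a mean of at least 5 TPM.

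Alternatives were a pseudocount of 0.1, no filter, genes averaging 10 TPM or more, median-of-ratios scaling, quantile normalization, no variance trend, a replicate block, each library left out (same genes kept), and a GC correction, in which a loess curve (span 0.5) on transcript GC content, known for 99.4% of genes tested, was subtracted in each library. Promoters and coordinates are from RefSeq, GRCm38.p6. Figures were drawn with matplotlib 3.10.9.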

Additional observations from a re-analysis of the deposited data

How the results depend on the processing

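Under the alternatives 134 values of the members moved by less than the spread between replicates and 2 by more. Much of this was fixed in advance. The changed filters, the variance trend and the replicate block leave a log2 difference as it is. Leaving out 1 of 3 libraries always moves it by less than that spread. Those were Dgat2, at -0.02 after GC correction, and Mgll, at -0.69 with a pseudocount of 0.1. The count of members called lower was 1, but 0 with a mean of at least 10 TPM, where Mgll was not tested, 0 with a replicate block, and 0 to 1 with a library left out. The count of members called higher was 2, and 3, with Pnpla2, without DMSO replicate 1 and after GC correction. The count of other lipid droplet genes called higher was 4, but 2 with a replicate block and 0 to 5 with a library left out. Aup1 turned to 0.025 after GC correction, Agpat1 to 0.059 after GC correction and 0.020 without DMSO replicate 1 (-0.10 to 0.020 with a library left out), and Agpat3 to 0.021 without DMSO replicate 1 (-0.13 to 0.021). Where no construction of the alternative shows it, the cause was not tested.

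Same-numbered libraries had correlations of their deviations from the group means of 0.16, 0.035 and -0.077, so the numbers were not taken to pair the samples. Over all genes 925 were called, and 218 with the replicate block (93 higher, 125 lower). Of the genes named and called without it, Mgll, Abhd6, Agpat4, Ankrd37, Bnip3 and Slc2a1 were not called with the block (limma adjusted p 0.065, 0.056, 0.071, 0.072, 0.066 and 0.057). The count over all genes was 494 with no filter, 608 with a mean of at least 10 TPM and 102 to 2242 with a library left out (2242 without DMSO replicate 2, 294 without DMSO replicate 3, 102 to 125 without a TVA library). Depth is unknown, which limits values near 1 TPM such as those of Mgll and G0s2 most.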
